A study of Homo sapiens with 10 samples.

Results

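The long arm of chromosome 1 (1q) was followed through peak lists of H4R3me2s, the symmetric dimethylation of arginine 3 on histone H4, measured by chromatin immunoprecipitation and sequencing (ChIP-seq). Its members were all peaks on chromosome 1 that start above position 125000000 of the GRCh38 build. They number 8615 of 131026 peaks in 13 deposited lists. Of these, 3726 of 67753 came from the 9 lists that compare 1 library each with Input, and the others came from 4 lists that compare pooled groups.

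The cells were SH-SY5Y, an established neuroblastoma line of human origin that can be driven towards a neuronal state, and all groups were grown in 10% fetal calf serum with 300 µg/ml zeocin. The 3 Naive libraries came from cells given no treatment. The 3 BDNF libraries came from cells given 10 µM retinoic acid (RA) in 3% serum for 6 days, then 50 ng/ml of the neurotrophin BDNF without serum for 4 days. The 3 BDNF+Dox libraries came from cells that had the same course and also 1 µg/ml doxycycline for 3 days. Doxycycline induces α-synuclein through a Tet-on system of the line, and all groups came from this 1 line. All were fixed in 1% formaldehyde for 10 minutes. One Input library from untreated cells of the line, made without antibody, was the control for all 9 libraries. Doxycycline in undifferentiated cells, or without the construct, was not analysed here. The labels do not state that replicates came from separate cultures, so p-values measure the spread between these libraries, which may be technical.

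H4R3me2s is written mainly by the arginine methyltransferase PRMT5 and has been linked mostly to repressed chromatin. The arm 1q runs from a block of heterochromatin at the centromere through duplicated segments of 1q21 that carry many near-identical gene copies. It then holds gene-dense clusters of skin, immune and olfactory genes, a gene-poor stretch around 1q31, and long neuronal genes towards the telomere. SH-SY5Y is known to carry extra copies of 1q and of chromosome 7. A peak list has no measure of copy number or of gene expression, so neither was measured here, and the line could not be checked against marker genes.

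The 9 libraries kept between 17164402 and 18928589 reads after duplicate removal, and the Input kept 17074000. Peaks were called at a p threshold of 0.01, and most had no support after adjustment. On chromosomes 1 to 22 and X, 0 to 3 of the 1q peaks of a library had a q-value of 0.05 or less. Folds, pileups, p-values and q-values of single peaks are those the authors' peak caller gave.

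Few 1q peaks lay just upstream of a gene start, and the sequences of 4 such windows show what the peaks covered there. RefSeq gives 1689 genes of 1q with a promoter window, of which the 250 bases upstream of the start were used, all matched by symbol. A library peak overlapped 9 windows (0.533%), and 9 of 3726 library peaks (0.241%) lay in one, while the windows make up 0.395% of the usable length of the arm. The median GC content of these 9 windows was 40%, with a range of 34.8% to 53.2%, beside 55.6% over all 1689. Only 2 of the 9 belonged to protein-coding genes, RGS18 and SPATA46, and the SPATA46 peak reached 22 bases into its window. Shown are the RGS18 window, both protein-coding windows with a peak in a pooled narrow list (RABGAP1L and CSRP1), and that of the long noncoding RNA LOC105373215, which had a peak in a library and in a pooled list. Each is written 5′ to 3′ on the strand of the gene (GRCh38.p14), and capitals mark the bases inside the peak.
RGS18: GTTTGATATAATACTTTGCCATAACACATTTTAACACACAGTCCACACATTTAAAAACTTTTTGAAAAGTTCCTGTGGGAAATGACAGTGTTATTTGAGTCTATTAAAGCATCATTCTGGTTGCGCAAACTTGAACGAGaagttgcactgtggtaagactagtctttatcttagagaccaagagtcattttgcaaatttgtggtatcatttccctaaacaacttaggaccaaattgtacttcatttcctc
RABGAP1L: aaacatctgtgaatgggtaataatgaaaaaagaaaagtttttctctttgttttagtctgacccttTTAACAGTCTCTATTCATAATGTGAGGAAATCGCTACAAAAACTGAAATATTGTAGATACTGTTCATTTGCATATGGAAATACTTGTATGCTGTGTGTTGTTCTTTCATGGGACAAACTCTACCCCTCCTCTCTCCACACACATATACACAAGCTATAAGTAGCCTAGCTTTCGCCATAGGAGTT
CSRP1: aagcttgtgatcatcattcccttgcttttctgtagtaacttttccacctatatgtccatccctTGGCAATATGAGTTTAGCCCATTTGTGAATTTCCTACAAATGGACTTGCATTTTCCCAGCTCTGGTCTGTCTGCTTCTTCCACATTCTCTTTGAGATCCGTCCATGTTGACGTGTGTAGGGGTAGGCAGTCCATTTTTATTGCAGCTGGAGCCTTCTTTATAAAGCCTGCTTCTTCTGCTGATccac
LOC105373215: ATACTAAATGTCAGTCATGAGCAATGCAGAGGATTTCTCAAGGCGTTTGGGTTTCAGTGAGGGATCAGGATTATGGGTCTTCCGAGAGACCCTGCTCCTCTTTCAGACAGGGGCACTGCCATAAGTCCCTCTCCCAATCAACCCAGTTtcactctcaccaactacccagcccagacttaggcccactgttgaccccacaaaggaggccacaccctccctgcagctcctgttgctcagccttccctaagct
The RGS18 window, chr1:192158212-192158461 on the plus strand, lies before a regulator of G protein signalling made in blood cells. Its peak came from Naive 1, covered 139 of the 250 bases and had a fold of 3.85 with a q-value of 0.473. The RABGAP1L window, chr1:174274850-174275099 on the plus strand, lies at a start inside the longer gene span and had 185 bases in a peak of BDNF+Dox over BDNF. In the authors' deposited table that peak had a fold of 2.11 and a q-value of 1. CSRP1 encodes a cysteine-rich LIM protein of smooth muscle, and its window, chr1:201496574-201496823 on the minus strand, had 183 bases in a peak of BDNF+Dox over Naive. The LOC105373215 window, chr1:235892035-235892284 on the plus strand, had the same 148 bases in a BDNF+Dox 2 peak (fold 3.55, q-value 1) and in a peak of the pooled list over Naive. None of these 4 windows had a peak with a q-value of 0.05 or less.

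The number of 1q peaks ranged from 279 to 735 per library. Naive libraries 1 to 3 had 735, 307 and 360 peaks on 1q, a mean of 467 ± 233 (SD, n = 3). BDNF libraries 1 to 3 had 292, 279 and 373, a mean of 315 ± 50.9 (SD, n = 3). BDNF+Dox libraries 1 to 3 had 566, 369 and 445, a mean of 460 ± 99.4 (SD, n = 3). Naive 1 stood above all other libraries, the other Naive libraries lay among the BDNF libraries, and BDNF+Dox overlapped both groups. The 3 groups did not differ beyond this spread (exact permutation test of the F ratio on the log10 number, p = 0.339, adjusted over 4 arm measures 0.857). For BDNF+Dox against BDNF the exact two-sided permutation p was 0.2, where 3 libraries against 3 cannot go below 0.1.

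As a share of all peaks of a library, 1q held 4.59% to 7.06%. The Naive libraries had 6.06%, 5.26% and 4.59%, the BDNF libraries 4.78%, 6.19% and 5.45%, and the BDNF+Dox libraries 5.24%, 5.34% and 7.06%. The group means of 5.30% ± 0.736, 5.47% ± 0.706 and 5.88% ± 1.02 (SD, n = 3 each) lay within the spread of the libraries (exact permutation test of the F ratio, p = 0.732, adjusted 0.857). BDNF+Dox 3 had the highest share, with an exact 95% binomial interval of 6.44% to 7.72% that covers counting error only.

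Per length, 1q was among the most densely peaked parts of the genome in every library. Length was counted as 1 Mb bins that hold a gene or a peak, which gave 107 Mb for 1q and 122 Mb for the short arm (1p). Density on 1q was 3.87 ± 1.40 peaks per Mb (SD, n = 9) and on 1p 2.03 ± 0.633. Among 24 units (chromosomes 2 to 22, X and both arms of chromosome 1), 1q ranked between the first and the fourth place in each library, and by the mean it came after chromosome 7, at 4.09 ± 1.51. In all 4 pooled lists 1q ranked first.

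**Figure D1:**
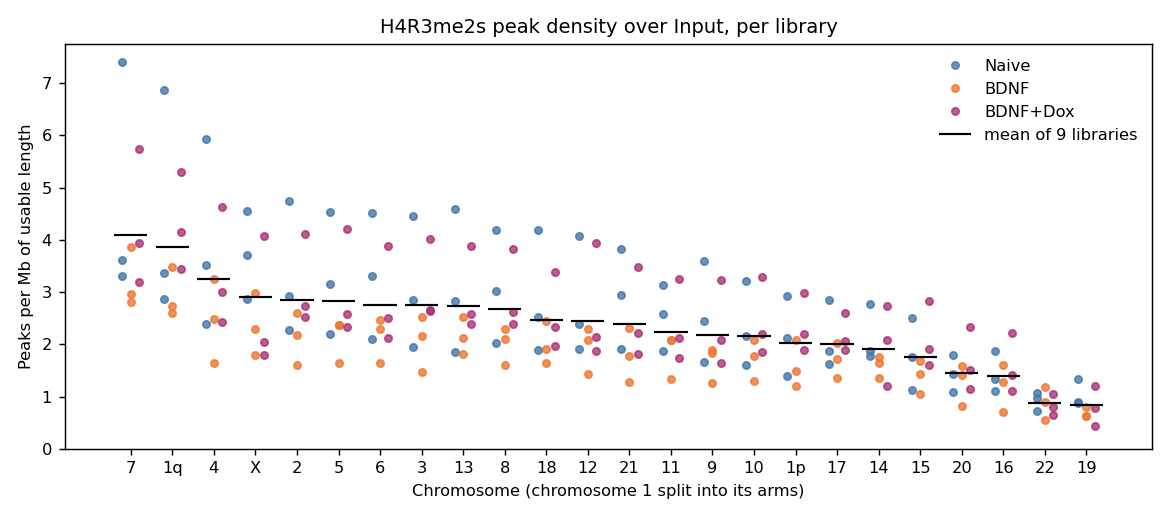
Peaks per Mb of usable length for each chromosome, with chromosome 1 split into its arms, ordered by the mean of 9 libraries (black bars). Points are single libraries coloured by group, and 1q stands second, with a mean of 3.87 against 2.03 for 1p.

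The ratio of 1q to 1p density was above 1 in 9 of 9 libraries. It was 2.34, 2.07 and 1.58 in Naive, 1.83, 2.18 and 1.67 in BDNF, and 1.77, 1.56 and 2.21 in BDNF+Dox. Its geometric mean was 1.89 (exact two-sided sign-flip permutation test over 9 libraries, p = 0.00391, the smallest it allows, adjusted over 8 comparisons 0.00521). Groups overlapped fully in this ratio (exact permutation test of the F ratio, p = 0.857, adjusted 0.857). Against the rest of the genome without 1q the geometric mean ratio was 1.52, again above 1 in 9 of 9 libraries (exact sign-flip permutation p = 0.00391, adjusted 0.00521). Against chromosome 7 it was 0.946, with single libraries from 0.866 to 1.08 and 2 of 9 above 1 (exact sign-flip permutation p = 0.0664). All 9 libraries share the 1 Input and come from 1 cell line, so they are not independent in what these contribute. The sign-flip p therefore shows only that the direction recurred across these libraries. The 8 comparisons of the adjustment include those of background and fold, which are not taken as tests below.

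The local background under the peaks was also higher on 1q. The caller divides pileup by a local background from the Input, so that background, in fragments per base, can be computed for each peak from its pileup and fold. Its median on 1q was 1.39, 1.45 and 1.66 in Naive, 1.58, 1.27 and 1.41 in BDNF, and 1.59, 1.51 and 1.28 in BDNF+Dox. On 1p the median lay between 1.01 and 1.13 in the 9 libraries, below every 1q value. The ratio of 1q to 1p ranged from 1.21 to 1.47 with a geometric mean of 1.37. This background comes from the 1 Input under all 9 calls, so the 9 values are not independent and were not taken as a test. Chromosome 7 stood at 1.47 and 1q at 1.46 as means over libraries. Chromosome 17 followed at 1.23 and chromosome 2 at 1.12, and the remaining 20 units lay between 1.05 and 1.08.

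The caller never sets the background below a genome-wide floor, and peaks of 1q seldom rested on it. Between 2.47% and 12.7% of the 1q peaks of a library had a background within 2% of that floor, against 23.3% to 60.4% of 1p peaks. Median fold on 1q was lower than on 1p in 9 of 9 libraries, by a mean difference of -0.21. Fold divides by that same Input background, so the 9 differences are not independent and were not taken as a test. Density and background were thus higher on 1q than on 1p, and fold was lower. Copy number was not measured, and its part in the density of 1q was not tested.

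Along chromosome 1 the background formed a step at the centromere. In 5 Mb bins of 1p the mean over libraries of the median background lay between 1.00 and 1.15 times the floor. Bins of 1q lay between 1.19 and 1.63 times the floor. From 145 Mb on, the highest were the 3 bins from 185 to 200 Mb, at 1.57, 1.56 and 1.55, and the bin from 215 Mb, at 1.56, and the lowest was the bin from 150 Mb, at 1.19. The pooled lists use another group in place of Input as control, and there too the median implied background was higher on 1q, at 4.63 against 3.41 on 1p over BDNF and 4.56 against 3.42 over Naive.

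**Figure D2:**
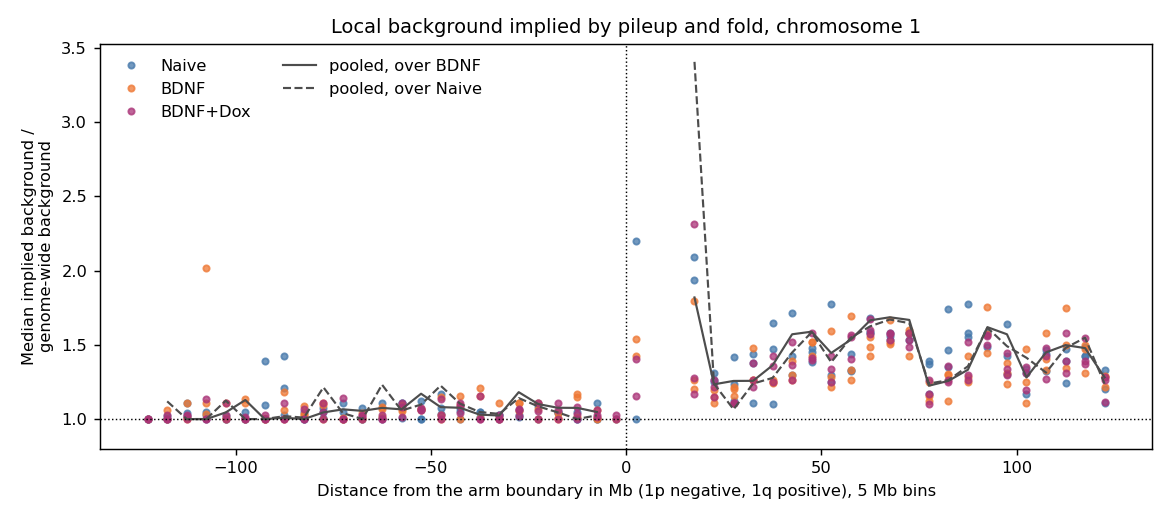
Median background implied by pileup and fold, divided by the genome-wide floor (dotted line at 1), in 5 Mb bins by distance from the arm boundary in Mb. Points are libraries over Input and lines are pooled lists (bins with at least 3 peaks); bins of 1p have library means of at most 1.15 and bins of 1q of at least 1.19.

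The share of peaks on 1q followed the fragment length that the caller estimated, a relation noticed in these data and then computed. Fragment length ranged from 151 to 178 bp. The libraries with 151, 153 and 154 bp (Naive 1, BDNF 2 and BDNF+Dox 3) had the 3 highest shares, and 1 came from each group. Over 9 libraries Pearson's r was -0.833 (exact permutation p = 0.00316, adjusted over 8 relations 0.0252). Spearman's rho was -0.917 (exact permutation p = 0.00131, adjusted 0.0105). Without Naive 3 and BDNF 1, the libraries farthest from the median length, r was -0.701 (exact permutation p = 0.0712, n = 7), so the call rests on those libraries. Taking each value as its deviation from its group mean gave r = -0.929. The 1q to 1p ratio had r = -0.741 with fragment length, which did not hold after adjustment (exact permutation p = 0.0321, adjusted 0.129). The rate of redundant reads had r = 0.621 with the share (exact permutation p = 0.0713, adjusted 0.19), and r = 0.558 for deviations from group means. Reads kept and the total number of peaks had r of -0.155 and -0.0665 with the share (exact permutation adjusted p = 0.868 for each).

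**Figure D3:**
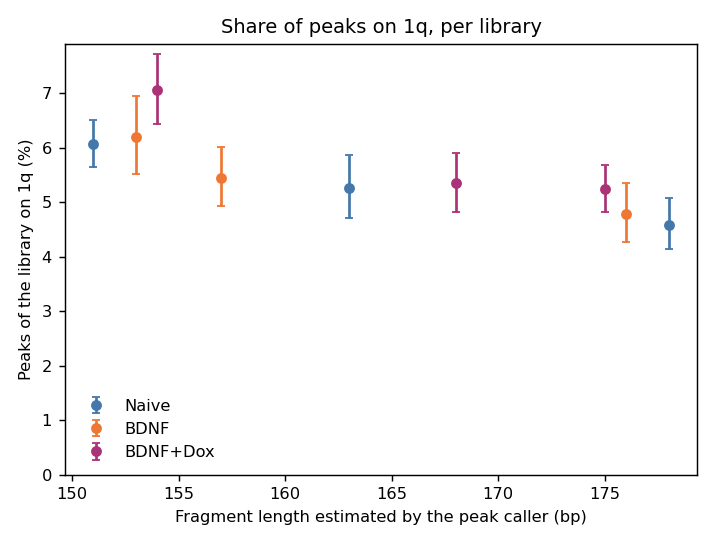
Share of a library's peaks on 1q against the fragment length estimated by the caller, in bp. Points are libraries coloured by group and bars are exact 95% binomial intervals; the 3 shortest fragment lengths go with the 3 highest shares, 6.06%, 6.19% and 7.06%.

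Peaks were spread over the whole sequenced arm, with the fewest next to the centromere. The 5 Mb bins from 125 and 140 Mb held 11 and 22 library peaks. From 145 Mb on, each of 21 bins held between 90 and 298. The bin from 145 Mb, the 1q21 duplicated segments, had 90 peaks beside 64 protein-coding genes, and the bin from 150 Mb, with the skin gene cluster, had 139 beside 160 genes. The bin from 190 Mb had the most peaks, 298, beside 11 protein-coding genes. Over the 21 bins Spearman's rho between library peaks and protein-coding genes was -0.711, a description over bins that share libraries and differ in base composition. For the pooled narrow lists the same rho was -0.111 over BDNF and 0.15 over Naive.

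The 3 gene-poor bins from 185 to 200 Mb hold 39 of the 973 protein-coding genes of 1q (4.01%), among them several regulators of G protein signalling. Their share of the 1q peaks was 31.2%, 17.6% and 23.3% in Naive libraries 1 to 3. It was 16.1%, 18.6% and 21.7% in BDNF and 16.1%, 14.6% and 16.6% in BDNF+Dox. All Naive libraries lay above all BDNF+Dox libraries, and the BDNF libraries overlapped both. The 3 groups did not differ by the exact permutation test of the F ratio (p = 0.0786), and Naive against BDNF+Dox gave 0.1, the smallest p that 3 against 3 libraries allow in that exact test. In the pooled lists, which have more reads and another group as control, the share was 9.39% to 13.1%, below each of the 9 libraries. Naive 1 alone had 229 peaks there, against 47 to 91 in the other libraries, and its bin from 190 Mb had 96. Without Naive 2 the exact permutation test gave p = 0.00714, and without any other single library between 0.0857 and 0.196, a check added after the values were seen. The comparison of these 3 bins was itself not planned, so its p-values are a description only. The bin from 215 Mb, with 12 protein-coding genes, was not in the set, though the bin from 195 Mb has 17. At 215 Mb the scaled log2 difference of BDNF+Dox against Naive was 0.52, against -0.24, -0.52 and -0.46 in the 3 bins.

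**Figure D4:**
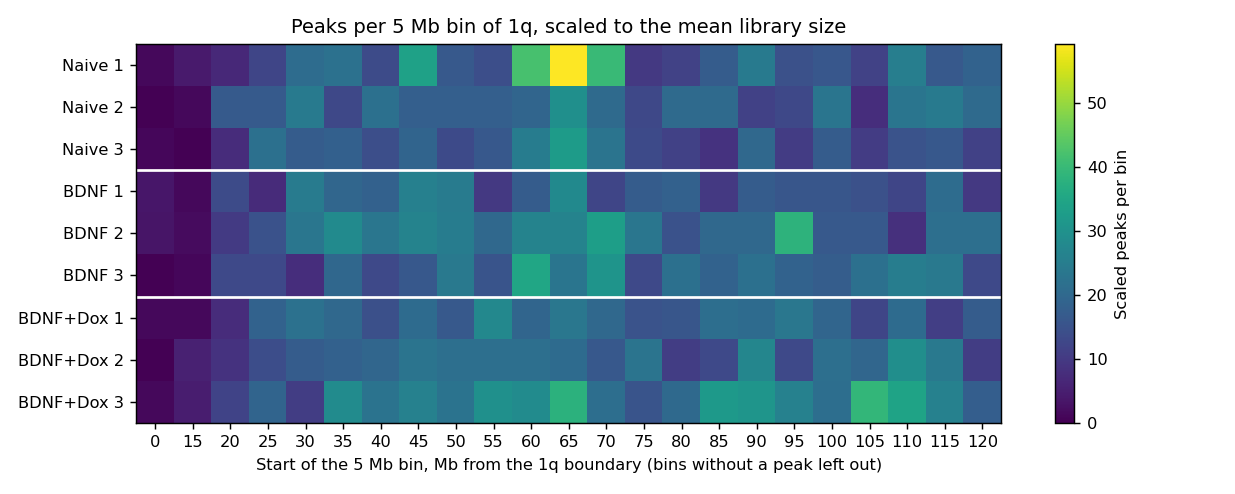
Peaks per 5 Mb bin of 1q in each library, scaled to the mean number of peaks per library, with bins by distance from the arm boundary in Mb. White lines separate the groups; the brightest cell is the bin 65 Mb from the boundary in Naive 1, which held 96 peaks.

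No 5 Mb bin of 1q differed between groups after adjustment. The test was limma on the log2 scaled peak number plus 1, fitted over 588 bins of the genome, where 0% were called in the F test and in each contrast. On 1q, 0 of 23 bins were called, while 4 had an unadjusted p under 0.05 in the F test (17.4%, beside 6.97% of all 588 bins). The unadjusted count was 2 in BDNF+Dox against BDNF (8.70%, beside 7.14%), 3 in BDNF against Naive (13%, beside 5.44%) and 2 in BDNF+Dox against Naive (8.70%, beside 8.84%). The bin from 235 to 240 Mb, which holds the calcium channel gene RYR2, was nearest to a call. It had 41, 18 and 16 peaks in Naive, 10, 5 and 23 in BDNF, and 30, 27 and 29 in BDNF+Dox. In raw number every BDNF+Dox library lay above every BDNF library. After scaling the groups overlapped, at 20.8 to 34.4 peaks in BDNF+Dox and 8.30 to 25.1 in BDNF, and the log2 difference of the scaled numbers was 0.95 ± 0.31 (SE) with a limma adjusted p of 0.298. Without BDNF 3 that difference was 1.36 with a limma adjusted p of 0.038, the single call on 1q when any library was left out.

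The bin from 230 Mb had the largest difference between BDNF+Dox and Naive. Peaks numbered 19, 6 and 11 in Naive, 12, 10 and 20 in BDNF, and 18, 18 and 33 in BDNF+Dox. Naive 1 lay above both 18-peak libraries in raw number, and after scaling all BDNF+Dox libraries lay above all Naive libraries, at 12.5 to 39.1 against 7.68 to 11.7 peaks. The log2 difference was 1.04 ± 0.33 (SE), with a limma adjusted p of 0.344. The bin from 180 Mb had 23, 14 and 17 peaks in Naive, 8, 12 and 14 in BDNF, and 40, 20 and 25 in BDNF+Dox. BDNF+Dox lay above BDNF in every library there, raw and scaled (21.7 to 29.7 against 9.80 to 19.9 peaks), with a log2 difference of 0.81 ± 0.30 (SE) and a limma adjusted p of 0.395.

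Peaks of 1q fell in protein-coding gene spans about as often as the spans cover the arm. Between 41.1% and 50.2% of a library's 1q peaks overlapped such a span, with a mean of 45.2%, while the spans cover 47.5% of usable length. A further 12.3% to 15.6% lay in noncoding genes only, and 35.5% to 46.6% lay outside any gene. The groups did not differ in the protein-coding share (exact permutation test of the F ratio, p = 0.407). In the pooled narrow lists, with more reads and another control, the share was 52.3% over BDNF and 54.1% over Naive, above each of the 9 libraries.

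Counting peaks within a gene or 2 kb on each side, 479 of 973 protein-coding genes of 1q had a peak in at least 1 library. In 5 or more libraries 87 had one (8.94%, beside 5.58% of all protein-coding genes of the genome). In all 9 libraries 3 had one (0.308%, beside 0.561%): ESRRG, SMYD3 and DNM3. ESRRG, an orphan nuclear receptor of energy metabolism, had 3, 1 and 3 peaks in Naive, 2, 4 and 3 in BDNF, and 4, 3 and 2 in BDNF+Dox. SMYD3, a SET-domain lysine methyltransferase, had 7, 3 and 1 in Naive, 1, 2 and 2 in BDNF, and 3, 1 and 4 in BDNF+Dox. DNM3, a dynamin of membrane fission at synapses, had 7, 1 and 2 in Naive, 3, 1 and 3 in BDNF, and 1, 2 and 4 in BDNF+Dox. The groups overlapped in all 3 genes. Their spans are 577 to 758 kb, and a long gene has more room for a peak. Per 100 kb they had 3.92, 3.15 and 4.13 peaks, beside 3.24 over all protein-coding genes of 1q.

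RABGAP1L, which activates the GTPase activity of Rab proteins of vesicle traffic, had the most peaks of any protein-coding gene of the arm, 39 over 9 libraries in 836 kb. It had 9, 3 and 3 in Naive, 4, 0 and 4 in BDNF, and 6, 5 and 5 in BDNF+Dox. In raw number BDNF+Dox lay above BDNF in every library, while after scaling to library size RABGAP1L had 4.15 peaks in BDNF+Dox 1, below 4.90 in BDNF 1 and 4.37 in BDNF 3. The log2 difference of the scaled numbers was 0.95 ± 0.57 (SE), which limma did not call (adjusted p = 0.900). RYR2, a calcium release channel of the endoplasmic reticulum, had 8, 3 and 4 peaks in Naive, 3, 0 and 3 in BDNF, and 8, 3 and 3 in BDNF+Dox. BDNF 2, the library with the fewest peaks of all, had none in either long gene, and the groups overlapped in the raw numbers of RYR2.

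HMCN1, an extracellular matrix protein of the fibulin family, had 5, 3 and 5 peaks in Naive, 2, 1 and 2 in BDNF, and 8, 0 and 0 in BDNF+Dox. All Naive values lay above all BDNF values, while the 8 BDNF+Dox peaks came from replicate 1 alone. DNAH14, a dynein heavy chain of the axoneme, had 5, 4 and 4 in Naive, 2, 1 and 2 in BDNF, and 0, 3 and 3 in BDNF+Dox. The Naive values of DNAH14 lay above the BDNF values, raw and scaled, with a log2 difference of BDNF against Naive of -0.68 ± 0.63 (SE) once scaled (limma adjusted p = 0.909). They lay above the BDNF+Dox values in raw number only, since Naive 1 scaled to 3.08 and BDNF+Dox 3 to 3.56 peaks. RPS6KC1, a relative of the ribosomal S6 kinases, had 24 peaks and KIF26B, a kinesin relative, had 21, and both had values in all 3 groups that overlapped.

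**Figure D5:**
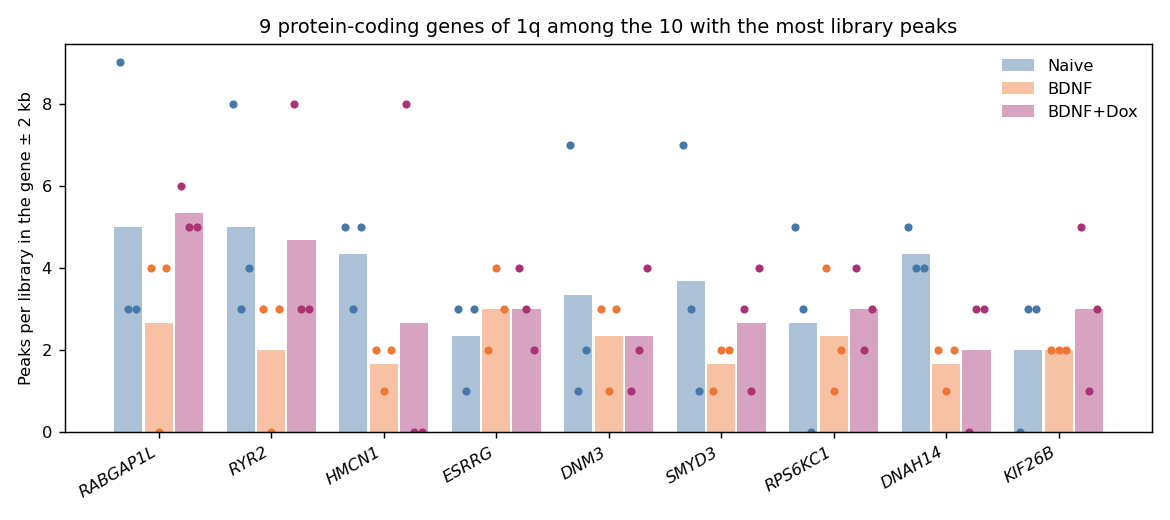
Peaks per library within the gene and 2 kb on each side for 9 of the 10 protein-coding genes of 1q with the most library peaks. Bars are group means (n = 3) and points are libraries; RABGAP1L leads with 39 peaks in all, and limma called none of the 9.

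Over genes, limma was fitted on 936 genes of the genome with at least 9 peaks, and 0% were called in the F test and in each contrast. Of the 62 on 1q, 0 were called, while 1 had an unadjusted p under 0.05 in the F test (1.61%, beside 3.63% of all 936 genes). The unadjusted count was 2 in BDNF+Dox against BDNF (3.23%, beside 5.02%), 1 in BDNF against Naive (1.61%, beside 4.06%) and 5 in BDNF+Dox against Naive (8.06%, beside 4.91%). Those 5 were named after their values were seen and are a description only. KCNH1, a voltage-gated potassium channel of neurons, had 1, 0 and 0 peaks in Naive, 0, 1 and 1 in BDNF, and 4, 2 and 3 in BDNF+Dox, whose libraries lay above all others. Its log2 difference of BDNF+Dox against Naive was 1.69 ± 0.65 (SE), with an unadjusted limma p of 0.00922 and an adjusted p of 0.935. XPR1, a phosphate exporter, differed by 1.68 and the readthrough transcript TSNAX-DISC1 by 1.45 on that scale. HMCN1 and the potassium channel KCNT2 had lower group means in BDNF+Dox, by -1.37 and -1.36 on the log2 scale. For HMCN1 this mean came from 8, 0 and 0 peaks, and BDNF+Dox 1 was the highest of all libraries, raw and scaled. The limma adjusted p was 0.935 for XPR1, TSNAX-DISC1, HMCN1 and KCNT2 as well.

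Shorter genes with recurrent peaks led when counts were taken per length. Among protein-coding genes with a peak in 5 or more libraries, TMEM183A, which encodes a transmembrane protein, came first with 23.3 peaks per 100 kb from 5 peaks. It had 1 peak in each Naive library, in BDNF 1 and in BDNF+Dox 1. CD244, a receptor of natural killer cells, followed at 16.3 per 100 kb, with 1 peak in each Naive library, 1 in BDNF 3 and 2 in BDNF+Dox 2. RGS21, a regulator of G protein signalling in the gene-poor stretch, had 14.7 per 100 kb and a peak in 7 libraries. FCRL5, an Fc receptor-like protein of B cells, had 13.9 and a peak in 2 libraries of each group. TSNAX, ATF3, CD55, ACBD3, COPA and ERO1B made up the 10, with 9.88 to 11.9 per 100 kb. These rates rest on 5 to 8 peaks a gene, and the genes were picked for a high rate.

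Noncoding genes of 1q reached as high counts as coding ones, chiefly in the gene-poor stretch. LOC105371657 and LOC124904475, both long noncoding RNAs of the bins from 185 to 195 Mb, had 37 peaks each and a peak in all 9 libraries. LOC105371657 had 9, 4 and 5 peaks in Naive, 1, 4 and 3 in BDNF, and 4, 5 and 2 in BDNF+Dox. LOC124904475 had 13, 1 and 7 in Naive, 5, 2 and 3 in BDNF, and 2, 1 and 3 in BDNF+Dox. The groups overlapped in both. LINC02770 from the same stretch had 23 peaks, LOC107985242 had 18, and TSNAX-DISC1 had 19, which in part are those of DISC1. Between 7 and 13 peaks came from each of LOC107985251, LOC107985255, LOC107985239, LINC01036, LOC105371664, LINC00624, CCDST, LOC105373220 and ZNF670-ZNF695, which had a peak in 6 to 8 libraries.

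Gene groups of the arm were described by the share of members with a library peak, beside 479 of 973 for all protein-coding genes, without a test. Among genes of neuronal adhesion, guidance and matrix, 24 of 33 had a peak, at 3.20 peaks per 100 kb. FMN2, an actin nucleator of neurons, had 3, 0 and 1 peaks in Naive, 3, 2 and 2 in BDNF, and 2, 3 and 3 in BDNF+Dox. CDC42BPA, a kinase of actin remodelling, had 19, of which 7 came from Naive 1 and 5 from BDNF+Dox 1. Members with 8 to 14 were the neural secreted protein BRINP3 with 14, the migration protein ASTN1 and the scaffold DISC1 with 11 each, the actin regulator ENAH with 9 and BRINP2 with 8. LAMC1, TNR, CAMSAP2, NAV1 and PLXNA2 had 3 to 6 peaks in 3 to 5 libraries.

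Ion channels, receptors and synaptic genes, with a median length of 62.3 kb, had a peak in 28 of 38 members, at 3.28 per 100 kb. After RYR2 and DNM3 the highest counts were 21 in RGS7, a regulator of neuronal G protein signalling, and 16 in CACNA1E, a calcium channel subunit. RGS7 had 3, 1 and 0 peaks in Naive, 0, 1 and 6 in BDNF, and 1, 3 and 6 in BDNF+Dox, so replicate 3 was the highest in both differentiated groups. KCNT2 had 7 of its 13 peaks in Naive 1. The muscarinic receptor CHRM3 had 12 peaks, 5 of them in Naive 1, and the Ras GTPase-activating protein RASAL2 had 12 in 8 libraries. NOS1AP, SYT14, KCNK2 and CNIH3 had 10 or 11 each, and SYT2 and GNG4 had 5 and 3.

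Developmental transcription factors, with a median length of 34.45 kb, had a peak in 24 of 35 members, at 3.70 per 100 kb. Apart from ESRRG, the stress sensor ATF6 had 11 peaks, POU2F1 had 7, and LMX1A, a regulator of dopaminergic neurons, had 6. NR5A2, PRRX1, GATAD2B and ZNF695 had 3 to 6 peaks in 3 or 4 libraries. ATF3, a factor induced by stress and nerve injury, had 1, 1 and 0 peaks in Naive, 0, 0 and 0 in BDNF, and 1, 1 and 3 in BDNF+Dox.

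The clusters of 1q differed more from one another. In the group of RGS genes and genes of 1q31 near them 18 of 26 had a peak, at 4.26 per 100 kb, and among olfactory receptors 26 of 62, at 4.89. OR2L13 had 8 peaks in 6 libraries, while OR6P1, OR6K3, OR6N1 and OR13G1 had 3 each. CRB1, a polarity protein of photoreceptors, had 11 peaks, RGSL1 had 9, PLA2G4A had 8, CDC73 had 6, and RGS8, RGS18 and ASPM had 3. In the epidermal differentiation complex of skin genes, with a median length of 2.19 kb, 9 of 49 had a peak. Its rate was 3.61 per 100 kb, beside 3.24 over all protein-coding genes of 1q. CRNN and HRNR had a peak in 3 libraries each. The replication-dependent histone genes of 1q21 had a peak in 1 of 12, in a Naive library. Genes of the duplicated 1q21 segments had a peak in 13 of 36, at 1.18 per 100 kb, the lowest rate but for the histone genes at 0.988. How reads that fit several copies were handled is not given in the sources used here, so counts in these near-identical copies are uncertain. CHD1L, a chromatin remodeller of that region, had 6 peaks in 6 libraries.

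Genes listed for immune and endothelial cells, not all of them confined to those cells, had a peak in 28 of 50 members, at 3.94 per 100 kb. Their rate lay above the 3.24 of all protein-coding genes, and TNFSF4 had 10 peaks in 7 libraries. PTPRC had 6, IFI16 and CR2 had 5, CD1B had 4 and SLAMF1 had 3. Naive had 10.3 peaks per library in these listed genes, BDNF 8.33 and BDNF+Dox 6.67. All protein-coding genes of 1q had 216, 152 and 232 peaks per library in that order, the neuronal adhesion list had 20.3, 14.3 and 27.7, and differences between groups were not tested per list.

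Few genes had a peak in each library of a group and in no library of another. Of 2702 genes of 1q, 9 had one in all BDNF+Dox and no BDNF library (0.333%), beside 0.186% of 59098 genes of the genome. These were RGS5 with the overlapping LOC127814295, KIFAP3, ATF3, PROX1-AS1, NVL, B3GALNT2, and ZBED6 and ZC3H11A, which share 1 span and so the same peaks. RGS5, a regulator of G protein signalling known from pericytes, had 2, 0 and 1 peaks in Naive and 3, 2 and 1 in BDNF+Dox. KIFAP3, an adaptor of the kinesin-2 motor, had 3, 0 and 1 in Naive and 1, 2 and 2 in BDNF+Dox. NVL, an ATPase of ribosome assembly, had 2, 0 and 0 in Naive and 1, 1 and 2 in BDNF+Dox. B3GALNT2, an enzyme of dystroglycan glycosylation, ZC3H11A, an mRNA export factor, and PROX1-AS1 had 1 peak in each BDNF+Dox library. Only RGS5 and KIFAP3 had enough peaks for limma, with log2 differences of 1.47 and 1.39 against BDNF and an adjusted p of 0.900 each. Presence of a peak was not scaled to list length. The BDNF lists were shorter, with a mean of 5820 peaks against 8006 in BDNF+Dox, which leaves more genes without a BDNF peak.

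In the other directions between 1 and 4 genes of 1q met that criterion. In BDNF+Dox and no Naive library there were 4 (0.148%, beside 0.117% in the genome): XPR1, LAMC1, PCNX2 and LOC124904458. XPR1 had 0, 0 and 2 peaks in BDNF and 3, 2 and 2 in BDNF+Dox. LAMC1, the laminin chain of basement membranes, had 0, 0 and 2 in BDNF and 1, 1 and 2 in BDNF+Dox. In Naive and no BDNF library there were 4 (0.148%, beside 0.142%): RPRD2, a regulator of RNA polymerase II, CATSPERE, a subunit of the sperm calcium channel, and the noncoding COP1-DT and LINC01720. In Naive and no BDNF+Dox library there was 1, LINC01221 (0.037%, beside 0.0711%).

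A peak in all BDNF libraries and in no library of another group was seen in 4 genes. OTUD7B, a deubiquitinase, LGR6, a receptor for R-spondins, and the olfactory receptor OR13G1 had one in no Naive library (0.111%, beside 0.0338%). OTUD7B, OR13G1 and the neighbouring pseudogene OR3D1P had one in no BDNF+Dox library (0.111%, beside 0.044%). OTUD7B had 2, 1 and 1 peaks in BDNF, and OR13G1 had 1 in each. An exact permutation test of a single gene with 3 libraries against 3 cannot go below 0.1.

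At the level of single regions the libraries shared little. Overlapping peaks were merged across libraries into 3564 regions on 1q, of which 95.6% had a peak in 1 library only. In 2 or more libraries 157 recurred (4.41%), beside 4.67% on chromosome 7, 2.01% on 1p and 2.26% outside 1q as a whole. The share rises where peaks are denser, and how far density sets it was not tested. Pairs of libraries of the same group shared 5.56 ± 3.43 regions of 1q (SD, 9 pairs) and pairs from different groups 4.37 ± 2.53 (SD, 27 pairs). The pairs reuse the same 9 libraries and the counts were not scaled to list length, so this difference was not tested.

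Only 4 regions of 1q had a peak in 3 or more libraries. The one with 4 libraries lies inside NMNAT2, which makes NAD in axons and keeps them from degenerating, at chr1:183336684-183337117. It had a peak in all 3 Naive libraries, with folds of 4.43, 4.66 and 3.63, in BDNF+Dox 1 with a fold of 3.04, and in no BDNF library. The 4 peaks have 10 bases in common. It was the 1 region of 1q found in every library of a group and absent from another, beside 0.00457% of 65632 regions of the genome in that direction. In the other directions 1q had 0 such regions, beside 0.00305% of the genome's for Naive and no BDNF+Dox, for BDNF+Dox and no Naive and for BDNF+Dox and no BDNF, and 0% with all BDNF libraries. NMNAT2 as a whole had 1 peak in each Naive library, 2 in BDNF 3 and 1 in BDNF+Dox 1.

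The other three each had a peak in 3 libraries and lay outside protein-coding genes. A region in the pseudogene NBPF13P of the duplicated 1q21 segments, chr1:147113568-147113887, had peaks in BDNF 1, BDNF 2 and BDNF+Dox 1 with folds of 3.49, 3.87 and 3.29. A second at chr1:176401084-176401562, which is 61.6 kb from PAPPA2, had peaks in BDNF+Dox 1, BDNF+Dox 2 and Naive 2 with folds of 2.44, 4.37 and 3.52, and no base lies in all 3 of its peaks. The last, chr1:233564000-233564408, is 49.7 kb from the potassium channel gene KCNK1 and had peaks in BDNF 1, BDNF 3 and Naive 2 with folds of 3.18, 3.13 and 3.16. Every one of the 3 regions mixed groups.

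The pooled lists ask where the merged BDNF+Dox reads exceed those of another group, and they give no spread between replicates. On 1q lay 750 of 9850 narrow peaks over BDNF (7.61%) and 608 of 7882 over Naive (7.71%). These shares lay above the 4.59% to 7.06% of the libraries over Input. The pooled calls used 54723304 merged reads with another group as control, so pooled and library shares are unlike measures. The broad lists had 1923 of 25226 (7.62%) and 1608 of 20165 (7.97%). Both comparisons share the BDNF+Dox reads, so they are not independent. A library of BDNF+Dox had an overlapping peak for 124 of the 750 (16.5%), beside 18% of pooled peaks elsewhere, and for 100 of the 608 (16.4%), beside 18.5% elsewhere.

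Over BDNF, 8 of 750 narrow peaks on 1q had a q-value of 0.05 or less (1.07%), beside 0.822% of all pooled peaks, and 67.2% had a q-value of 1. The strongest lay in RNF115, an E3 ubiquitin ligase gene, at chr1:145815113-145815349. In the authors' deposited table it had a fold of 5.31 and a q-value of 7.19e-06. A library peak overlapped it in BDNF+Dox 3 only, with a fold of 6.26 and a q-value of 0.0019. The next, in NME7, a nucleoside diphosphate kinase family gene, at chr1:169220877-169221079, had a fold of 4.13 and a q-value of 0.000367 in the authors' deposited table, with a library peak in BDNF+Dox 2. GOLT1A, a Golgi transport gene, had a peak at chr1:204204100-204204380 with a fold of 4.10 and a q-value of 0.00489 in the authors' deposited table, and no library peak. In the same authors' deposited table, q-values of 0.0212 to 0.0418 belonged to peaks in the tyrosine kinase gene ABL2, LOC105371216, LOC102724754, LOC105371657 and ANGEL2, none of which a library peak overlapped. SRGAP2B and SMYD3 completed the 10 genes, at 0.0757 in the authors' deposited table, a value that LOC105372926 and the lysosomal trafficking gene LYST also had.

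Over Naive, 7 of 608 narrow peaks had a q-value of 0.05 or less (1.15%), beside 1.01% of all pooled peaks, and 78.6% had a q-value of 1. The strongest, at chr1:145099655-145099868, lay in FAM72D, one of several near-identical FAM72 copies, with a fold of 4.30 and a q-value of 0.000507 in the authors' deposited table. A library peak of FAM72D was not called in any of the 9 libraries. An intergenic peak 14.7 kb from GPR137B, chr1:236127582-236127832, had a fold of 4.41 and a q-value of 0.00125 in the authors' deposited table and a library peak in BDNF+Dox 1. In the authors' deposited table YY1AP1, named for its binding to the factor YY1, had 0.00534, the pseudogene PDE4DIPP5 0.0131, COPA, a coat protein of Golgi vesicles, 0.0167, ANGEL2 0.0462 and MROH9 0.0488 as q-values. BTG2, an antiproliferative gene, and LOC124904852 followed at a q-value of 0.0593, RYR2 at 0.0614 and RNF115 at 0.0639 in the authors' deposited table. Of the 7, the GPR137B and PDE4DIPP5 peaks alone overlapped a library peak, both in BDNF+Dox 1.

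In the single libraries 10 peaks of 1q had a q-value of 0.05 or less (0.268%, beside 0.29% of all library peaks), and no position had one in more than 1 library. Beside that in RNF115, they lay in NOS1AP and ENAH (both Naive 2, q-values 0.0415 and 0.0225), in RASAL2 and LGR6 (both BDNF 2, q-values 0.0173 and 0.0339), in LOC105371217 (Naive 1, q-value 0.00579) and at 4 positions outside genes. NOS1AP is a partner of neuronal nitric oxide synthase, and ENAH remodels actin at growth cones. Naive 3, BDNF 1, BDNF 3, BDNF+Dox 1 and BDNF+Dox 2 had no such peak on 1q.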

How the data were processed

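H4R3me2s ChIP-seq libraries of SH-SY5Y (3 Naive, 3 BDNF, 3 BDNF+Dox) and 1 Input were analysed from deposited peak lists. The tools named in the submitters' processing notes are cutadapt 1.1 and Trimmomatic 0.32 for trimming and Bowtie for alignment to GRCh38, and MACS2 2.2.7.1 called the peaks. Single libraries were called over Input at p 0.01, per the file headers, and merged BDNF+Dox against merged BDNF or Naive (narrow, and broad with a cutoff of 0.01). The deposited columns hold the pileup, a coverage signal, the fold over local background (a ratio), and −log10 values of p and q (p-value and q-value), all made by the authors. Per the file headers no q-value was to be computed, yet a q column is filled, and it was used unchanged. Coordinates start from 1.

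Peaks on chromosomes 1 to 22 and X were counted by arm, 5 Mb bin and RefSeq gene span (GRCh38.p14) with 2 kb on each side. Implied background was (pileup + 1)/fold - 1. Library measures were compared by exact permutation over 1680 assignments, pairs of groups over 20, and arms by sign-flips over 512. Bins and genes with at least 9 peaks were fitted with limma 3.58.1 (R 4.3.3). The values were log2 of peaks scaled to the library's number of peaks, plus 1, with Benjamini-Hochberg adjustment over all bins or genes. Before that, the code was run on simulated Poisson counts without added spread between libraries. That run does not show which differences could be found here. Alternatives were stricter thresholds, equal list lengths, other bins, gene windows, pseudocounts and lengths, omission of each library, and a replicate block. Labels give groups the same replicate numbers without saying that these mark a shared culture.

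Members and gene lists were chosen with earlier results of these data known. Genes named were, on 1q, the 10 protein-coding genes with the most library peaks, the 10 with the most per 100 kb among those in at least 5 libraries, those found in each library of one group and in no library of another, the 10 with the smallest q in each pooled narrow list, list members in at least 3 libraries, noncoding genes in at least 6, and 10 genes that earlier results named. Some genes that this rule names are not reported here. Unplaced contigs were left out, and no read counts per region were used, so depth limits single peaks in a way not computed here.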

Additional observations from a re-analysis of the deposited data

How the results depend on the processing

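The directions of the 1q to 1p density ratio (1.61 to 2.12 over settings, 1.84 to 1.94 with one library left out) and of the implied background ratio (1.37 with pericentromeric segments removed, 1.35 to 1.39 with one library left out) held under all 15 and 10 alternatives run. Peak number and share on 1q stayed above the threshold in all 15 alternatives each, with exact permutation p of 0.125 to 0.639 and 0.482 to 0.868 when one library was left out. Same-numbered libraries correlated between -0.162 and 0.0799 in their deviations from group means over bins, so the numbers were not taken to pair them, and 5 of 18 comparisons were best with the own number. With the replicate block the exact permutation p was 0.278 for number and 0.806 for share, and limma called 0 bins and 0 genes of 1q. Leaving out one library gave 0 to 1 called bins and 0 called genes, and no other alternative called any. Recurring regions numbered 208 with peaks merged within 200 bp, 84 at −log10 p of 3 or more, 68 with equal list lengths, and 103 to 133 with one library left out, 103 without Naive 1. Regions found in each library of one group and in no library of another numbered 4 with merging within 200 bp, 2 with equal list lengths, and 2 to 21 with one library left out, since 2 libraries then define a group. The 1q share of pooled peaks was 9.88% over BDNF and 8.75% over Naive at a q-value of 0.05 or less, and 8.16% and 9.31% at −log10 p of 5 or more, where few peaks remain. The share of 1q peaks in the 3 gene-poor bins, a comparison that was not planned, had an exact permutation p of 0.00714 to 0.196 with 1 library left out. Genes had few peaks per library, and the smallest difference that such numbers could show was not computed.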
